A study of Mus musculus with 13 samples.

Results

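The genes described here encode voltage-gated and potassium ion channels. They are all genes that the array's annotation gives as the sole gene of a probe set and whose symbol begins with Kcn (potassium), Scn and a digit (sodium), Cacna, Cacnb or Cacng (calcium), Hcn (hyperpolarization-activated) or Clcn (chloride). This rule found 68 of 8251 genes, read by 88 of the 10833 probe sets with 1 gene. They were 42 potassium, 12 calcium, 6 sodium, 6 chloride and 2 Hcn genes. Of the 88 probe sets, 50 for 41 genes passed a filter on mean log2 signal, set at the 40th percentile of the array (a signal of 24.9), and were tested. The other 38 probe sets were below it. The members nearest to it were Kcna6 just inside, at a geometric mean of 25.0, and a second Kcnj9 probe set just outside, at 24.1.

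Whole brain hemispheres of mice were read on 13 Affymetrix MG-U74Av2 arrays. The 4 groups were R6/2 mice given a triple treatment (3 arrays), untreated R6/2 mice (4 arrays), wild type mice given the triple treatment (3 arrays) and untreated wild type mice (3 arrays). The R6/2 mouse is a transgenic model of Huntington's disease with rapid onset. Its transgene is a fragment of the human huntingtin gene, the first exon with a long CAG repeat, driven by the human promoter and active in most tissues, so it models neither the full-length protein nor the slow course in people. The treatment joined tacrine (2.7 mg/kg per day from an age of 5 weeks), a cholinesterase inhibitor, with moclobemide (10 mg/kg per day), an inhibitor of monoamine oxidase A, and creatine (1% in wet mash), an energy buffer. All 13 descriptions list these agents, so treated and untreated follow the titles. An age at harvest, 8 weeks, is stated for 1 untreated wild type sample. No sex is stated, and nothing says that each array is a separate animal, so p-values measure the spread between these samples, which may be technical.

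Neurons use these channels in different compartments and phases of the action potential. Sodium channels carry the upstroke, Kv potassium channels with their cytoplasmic partners repolarize the membrane, and inward rectifiers and tandem-pore channels hold the resting potential. Calcium channels, built from a pore with auxiliary beta, alpha2delta and gamma subunits, couple the action potential to transmitter release and to calcium-activated potassium channels. Striatal projection neurons, which are lost or impaired early in Huntington's disease, rest at a very negative potential that is set largely by inward rectifiers. In a whole hemisphere, fewer cells of a type and less RNA per cell cannot be told apart.

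The stretches before the transcription start of 3 members are shown because these genes carry the genotype results below: Cacna2d3 fell in R6/2 mice in both treatment arms, Kcnj4 fell in untreated R6/2 mice and its arrays did not overlap in treated mice, where it did not pass, and Cacna2d1, the relative of Cacna2d3, fell in untreated R6/2 mice. Each is the 150 bases upstream of a RefSeq start in GRCm38.p6, 5′ to 3′ on the gene's strand, with GC boxes in capitals. A GC box is GGGCGG or its reverse complement, the binding motif of Sp factors.
Cacna2d3 (chr14:29721865-29722014, minus strand): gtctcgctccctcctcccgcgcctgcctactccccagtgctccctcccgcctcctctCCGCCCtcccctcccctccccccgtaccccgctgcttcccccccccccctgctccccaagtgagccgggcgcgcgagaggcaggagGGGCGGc
Cacna2d1 (chr5:15934541-15934690, plus strand): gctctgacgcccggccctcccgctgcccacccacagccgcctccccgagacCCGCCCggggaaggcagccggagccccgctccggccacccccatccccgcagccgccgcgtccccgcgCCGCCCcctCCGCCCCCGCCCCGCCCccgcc
Kcnj4 (chr15:79505242-79505391, minus strand): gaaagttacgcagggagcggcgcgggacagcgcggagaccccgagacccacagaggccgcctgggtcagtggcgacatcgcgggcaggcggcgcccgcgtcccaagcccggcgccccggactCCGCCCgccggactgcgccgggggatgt
There are 2 GC boxes in the Cacna2d3 window, 5 in that of Cacna2d1, the last 2 of which share a base, and 1 in that of Kcnj4. Of all 32851 promoter windows of this length, 28.6% hold a GC box on either strand. The windows are rich in G and C, at 77.3% for Cacna2d3, 85.3% for Cacna2d1 and 76.7% for Kcnj4, against a median of 54.0% over all windows. The Cacna2d1 window also holds TGACG on 1 strand, as do 13.3% of all windows on either strand, and none of the 3 holds TATAAA on either strand (7.6% of all windows do). A match says only that these letters are present.

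Signals are linear values scaled by the authors, with array medians of 39.6 to 45.1. Arrays are numbered within their group in order of deposition, and values below keep that order. Untreated R6/2 arrays 2 and 3 stood apart from all others on the first principal component (33.9% of the variance), with scores of 25.4 and 45.7 against -14.7 to 4.09 in the other 11 arrays. The median of the 41 channel genes was -0.28, -0.32, -0.68 and -0.13 in untreated R6/2 arrays 1 to 4, as a log2 difference from the untreated wild type mean. It was -0.15, -0.12 and -0.07 in treated R6/2 arrays and -0.01, 0.08 and 0.00 in treated wild type arrays. The main counts of calls and leading genes that rest on the untreated R6/2 group are therefore also given without arrays 2 and 3. Counts of groups that did not overlap, and of signs shared between the treatment arms, are given with all arrays only. The array's 66 control probe sets also tied some arrays together. In untreated R6/2 arrays 2 and 3 all 66 were 1.2 times those of treated R6/2 arrays 1 and 3, one array each and within a signal of 0.1, and all 66 in untreated R6/2 array 1 were 0.833 times those in array 4. The gene probe sets of these 3 pairs did not share such a ratio, and correlated at 0.933, 0.899 and 0.964 across probe sets on the log2 scale. Between R6/2 and wild type arrays the summed signal of 10 neuron markers did not overlap, at 9705 to 10334 in treated and 9016 to 10368 in untreated R6/2 mice, against 10646 to 11382 in treated and 11260 to 11628 in untreated wild type mice. The sum of 6 oligodendrocyte markers was 2558 to 3527 in treated and 2352 to 2980 in untreated R6/2 mice, against 3895 to 4553 in treated and 3924 to 4363 in untreated wild type mice. The sum of 5 inhibitory neuron markers was 2782 to 2958 in treated and 2637 to 2814 in untreated R6/2 mice, against 3606 to 3888 in treated and 3681 to 3945 in untreated wild type mice. The sum of 7 astrocyte markers was 2625 to 3112 in treated and 2626 to 3215 in untreated R6/2 mice, against 3237 to 3518 in treated and 3275 to 3289 in untreated wild type mice. In untreated mice 3 of the 10 neuron, 1 of the 3 excitatory neuron, 1 of the 5 inhibitory neuron, 2 of the 7 astrocyte and 3 of the 6 oligodendrocyte markers fell in R6/2 brains (limma), beside 6.41% of all tested probe sets. Without arrays 2 and 3 these counts were 1, 1, 1, 0 and 1, where 2.19% of all passed in either direction. The excitatory marker that fell was Camk2a, with a log2 change of -2.91, and -1.71 without those arrays. The sums of the 3 excitatory markers overlapped in untreated mice, at 446 to 705 in R6/2 and 528 to 624.5 in wild type. In treated mice they did not, at 396 to 495 in R6/2 and 606 to 689 in wild type. The sum of 3 red blood cell genes was 928 to 2146 in treated and 904 to 1872 in untreated R6/2 mice, against 995 to 1650 in treated and 1979 to 3525 in untreated wild type mice. Microglia marker sums overlapped between all 4 groups. Marker sums of other tissues reached 223 for 4 pituitary genes and 144 for 3 muscle genes. The part of these shifts in the channel results was not tested.

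In untreated mice, channel transcripts were lower in R6/2 brains more often than higher. Of the 50 tested probe sets, 11 fell and 1 rose in untreated R6/2 against untreated wild type mice (limma, adjusted p under 0.05), while 11.9% of all 7453 tested probe sets changed, 6.41% downward and 5.49% upward. Counted as genes by the brightest probe set, 10 of 41 channel genes fell, which is 24.4%, beside 6.32% of all 5676 genes. Of the 10, Kcna6 was just inside the filter, helped by its high untreated wild type values. The median log2 change was -0.39 over the channel genes and 0.04 over all tested probe sets. Without untreated R6/2 arrays 2 and 3 these medians were -0.16 and 0.05. Estimates were below 0 for 29 of the 41 channel genes (70.7%) and for 46% of all genes. Without untreated R6/2 arrays 2 and 3 they were below 0 for 31 of the 41. Every R6/2 array lay below every wild type array for 16 of the 50 probe sets and above for 4, beside 12.3% and 13.9% of all probe sets.

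The classes differed in their counts. Among potassium channels 7 of 24 genes fell and none rose, with a median log2 change of -0.41. Among calcium channel genes 2 of 8 fell, with a median of -0.44. Of the 2 sodium channel genes tested, Scn8a fell and Scn1a was not called. Among chloride channels 1 of 5 genes rose and 4 of 5 estimates were above 0 by the brightest probe sets. Their median of 0.33 was the value of Clcn5, a dim gene with an SE of 0.41. Clcn4 was above 0 by its brightest probe set and below 0 by its other, and the probe sets of Clcn3 also differed in sign. Neither Hcn gene passed. Without untreated R6/2 arrays 2 and 3 the medians were -0.31 for potassium, -0.22 for calcium and 0.14 for chloride genes, and 2 channel probe sets passed, Kcnn1 and Scn8a, while 2.19% of all probe sets did. In treated mice the medians were -0.20 for potassium, 0.00 for calcium and 0.13 for chloride genes, beside 0.03 over all tested probe sets. There 2 of 50 probe sets fell, Kcnab1 and Cacna2d3, and none rose, beside 0.792% of all probe sets (0.711% downward and 0.0805% upward). The treated R6/2 arrays lay below the treated wild type arrays for 9 of the 50 and above for 1, beside 8.17% and 8.63% of all.

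**Figure D1:**
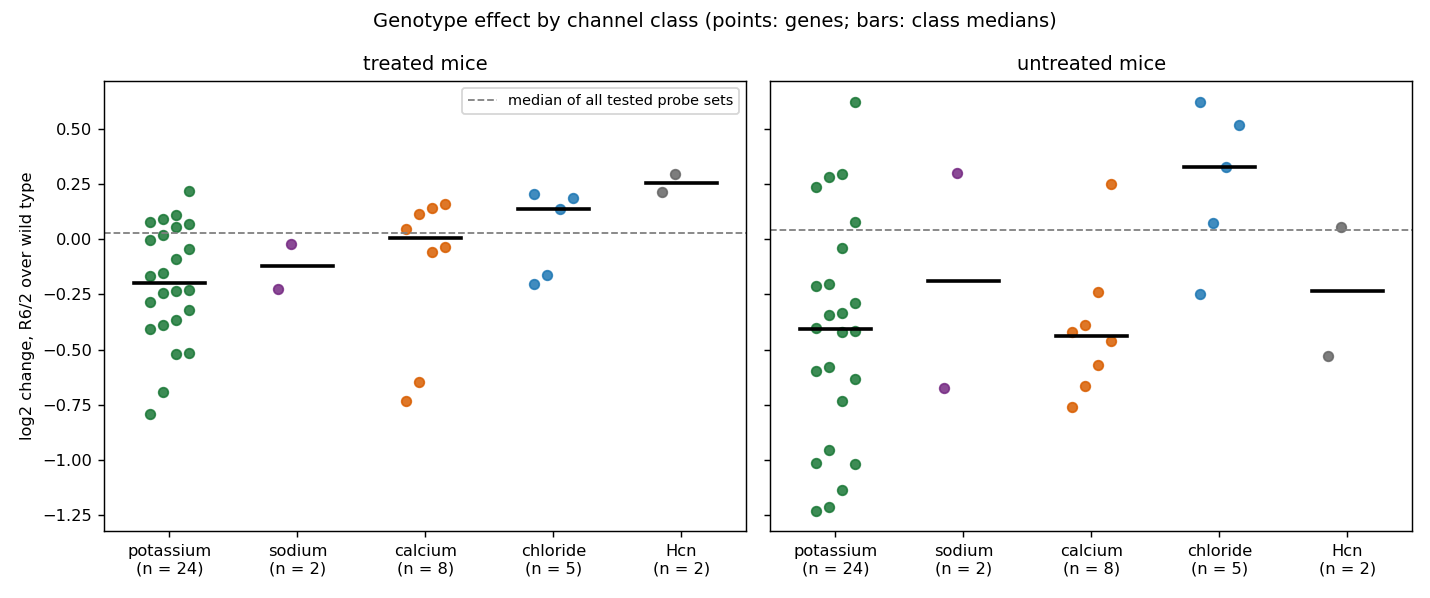
Log2 change in R6/2 over wild type mice (y axis) of each tested channel gene, by class, in treated (left) and untreated mice (right), with class medians as bars and the median of all tested probe sets as a dashed line. In untreated mice most potassium and calcium points lie below 0 and 4 of the 5 chloride points above it.

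Averaged over both treatment arms, which uses all 13 arrays, 7 of 50 probe sets fell and none rose, where 6.61% of all probe sets changed (4.04% downward and 2.58% upward). They were Cacna2d3, Kcnab1, Kcna1, Kcnj4, Scn8a, Kcnk2 and Kcnj11. The calls of Cacna2d3, Kcnab1, Kcna1 and Kcnj4 held whichever of the 13 arrays was left out, and also without untreated R6/2 arrays 2 and 3. Those of Scn8a, Kcnk2 and Kcnj11 held in 8, 5 and 3 of the 13 fits without 1 array. Again 7 of 50 fell when untreated R6/2 arrays 2 and 3 were left out, with Kcnn1 (log2 change -0.65) in place of Kcnj11, beside 5.68% of all probe sets. For 4 of the 50 probe sets, Cacna2d3, Kcna1, Kcnj4 and Kcnk2, every R6/2 array lay below every wild type array within both treatment arms, as 3.21% of all tested probe sets did.

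**Figure D2:**
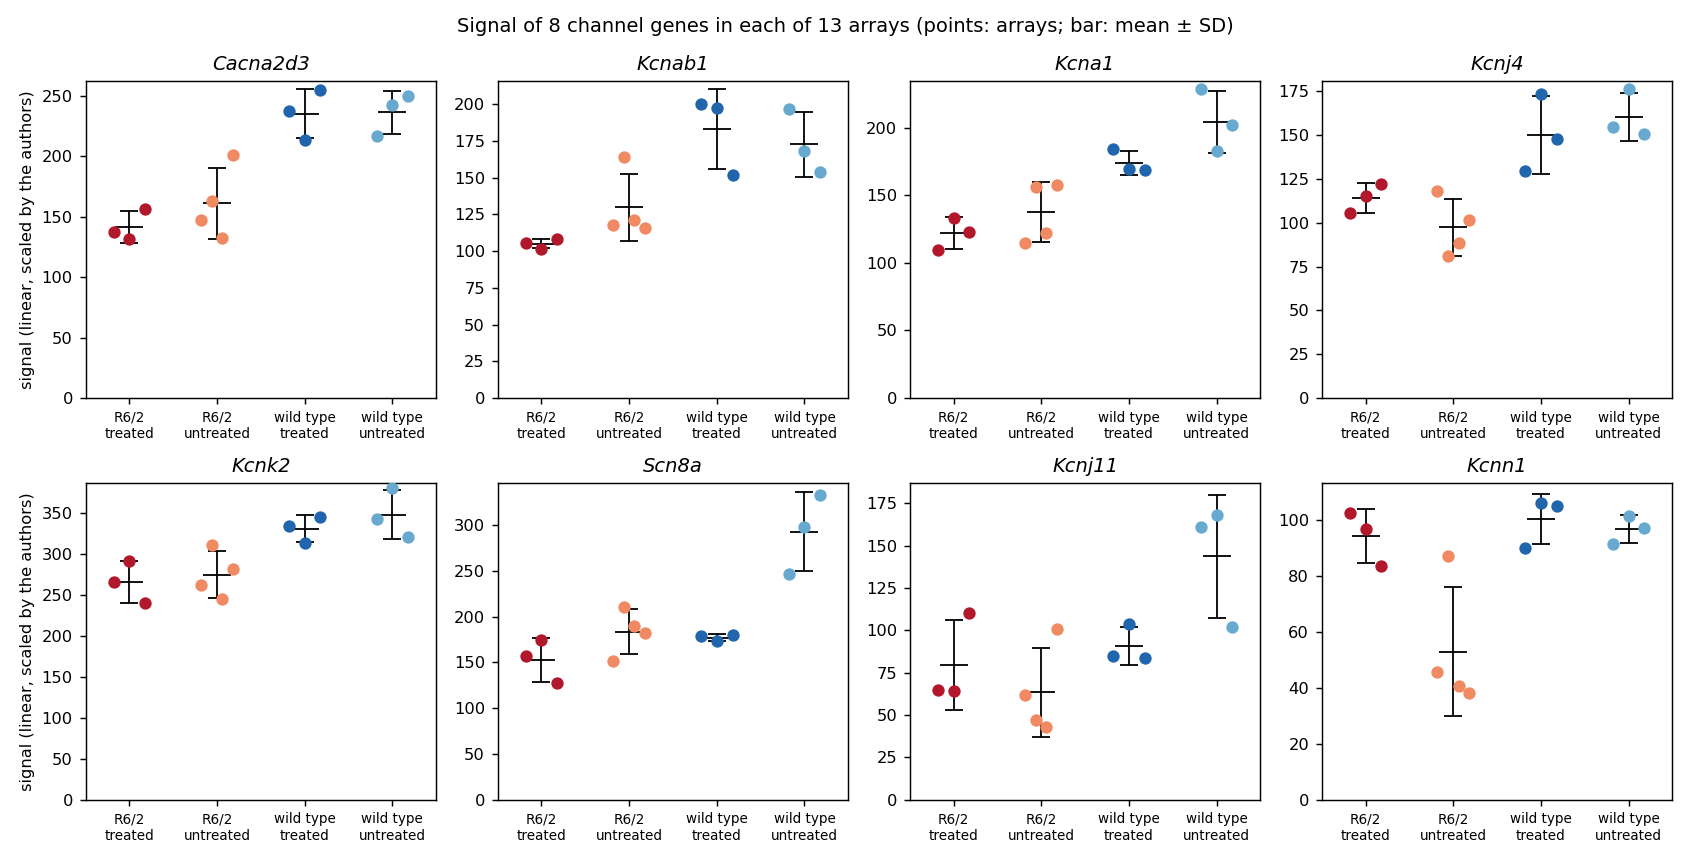
Signal (y axis, linear, scaled by the authors) of 8 channel genes in each array, by group, with the mean and SD of each group. For Cacna2d3, Kcna1, Kcnj4 and Kcnk2 all R6/2 points lie below all wild type points of the same treatment arm, while Kcnn1 is low in 3 of the 4 untreated R6/2 arrays alone.

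Among the 11 tested Kv pore genes, 3 fell in untreated R6/2 mice by their brightest probe set: Kcna1, Kcna2 and Kcna6, all members of the shaker-type family that sits on axons and near nodes of Ranvier. The other tested genes of that family, Kcna3 and Kcna5, had log2 changes of -0.20 and -0.04 (limma adjusted p = 0.493 and 0.906). Kcna1 had signals of 115, 156, 122 and 158 in untreated R6/2 mice, against 229, 182 and 202 in untreated wild type mice. In treated mice it had 109, 133 and 123 in R6/2 and 184, 169 and 168 in wild type. All 7 R6/2 values were below all 6 wild type values. The log2 change of Kcna1 was -0.58 (SE 0.14) in untreated mice (limma adjusted p = 0.0222) and -0.52 (SE 0.15) in treated mice (adjusted p = 0.177). Averaged over the arms it was -0.55 (SE 0.10), with an adjusted p of 0.00607 by limma.

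Kcna2, which joins Kcna1 in mixed channels, had signals of 33, 59.9, 33.1 and 68 in untreated R6/2 mice, against 107, 100 and 96.8 in untreated wild type mice. It had 56.8, 53 and 60.2 in treated R6/2 and 30.3, 72.8 and 52.4 in treated wild type mice. The untreated wild type values were thus above those of the other 3 groups, which overlapped one another. The log2 change was -1.14 (SE 0.29) in untreated mice (limma adjusted p = 0.025) and 0.22 (SE 0.31) in treated mice (adjusted p = 0.949). Kcna6 was dim, with 18, 14.3, 11.9 and 26.3 in untreated R6/2 mice, against 49, 34 and 35.9 in untreated wild type mice, a log2 change of -1.21 (SE 0.36) (limma adjusted p = 0.0428). In treated mice the Kcna6 groups overlapped, at 16.9 to 33.8 in R6/2 and 17.2 to 41.2 in wild type. Kcna6 was only just inside the filter, at 25.0 against 24.9. Its mean signal was 39.6 in untreated wild type mice and 17.6 to 28 in the other groups. Its passing the filter, and so its call, therefore leans on the group where it is high.

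Kcnd2, a pore of the dendritic A-type current, was read differently by its 2 tested probe sets. The dimmer fell in untreated R6/2 mice, with 47.7, 33.3, 30.9 and 66.6, against 62.3, 90.3 and 80.9 in untreated wild type mice, a log2 change of -0.86 (SE 0.26) (limma adjusted p = 0.0473), although the groups overlapped. The brighter had 171, 202, 267 and 124 in untreated R6/2 mice, against 196, 121 and 147 in untreated wild type mice, a log2 change of 0.28 (SE 0.22) with an adjusted p of 0.42 by limma, and -0.05 without untreated R6/2 arrays 2 and 3. No direction can therefore be given for Kcnd2. Kcna5 was 30, 28 and 30 in treated R6/2 mice and 54.8, 39.4 and 49.1 in treated wild type mice, which did not overlap (log2 change -0.69 (SE 0.21), limma adjusted p = 0.207), while its untreated groups averaged 35 in R6/2 and 36 in wild type. Kcnc1, a channel of fast-spiking neurons, averaged 21.8 ± 9.09 in untreated R6/2 and 40.3 ± 6.26 in untreated wild type mice (SD, n = 4 and 3), without overlap but short of the threshold (adjusted p = 0.106 by limma). The other 5 Kv pore genes (Kcna3, Kcnd3, Kcnh2, Kcnq1 and Kcns2) had log2 changes of -1.01 to 0.30 in untreated mice and none passed.

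Of the cytoplasmic Kv partners, Kcnab1 was low in R6/2 mice. Its product gives shaker-type channels fast inactivation. Kcnab1 had signals of 105, 102 and 108 in treated R6/2 mice, against 200.2, 197 and 152 in treated wild type mice. In untreated mice it had 118, 164, 121 and 116 in R6/2 and 197, 168 and 154 in wild type, where untreated R6/2 array 2 reached the range of the wild type arrays and the other 3 did not. The log2 change was -0.79 (SE 0.16) in treated mice (limma adjusted p = 0.0315), -0.42 (SE 0.15) in untreated mice (adjusted p = 0.0815) and -0.61 (SE 0.11) averaged (adjusted p = 0.00495). The call in treated mice was lost without any of the treated R6/2 arrays 1, 2 and 3, with changes of -0.79, -0.77 and -0.81, without treated wild type array 1 or 2 (-0.72 and -0.73) and without untreated wild type array 2 (-0.79). Kcnab2 averaged 432 ± 18.4 in treated R6/2 mice and 513 ± 52.4 in treated wild type mice (SD, n = 3 each), and 358 ± 80 in untreated R6/2 and 469 ± 41.1 in untreated wild type mice (SD, n = 4 and 3). Neither comparison of Kcnab2 passed (limma adjusted p = 0.779 treated and 0.0901 untreated), and its other probe set had a log2 change of 0.01 in untreated mice. Kcnab3 had log2 changes of -0.60 in untreated and -0.37 in treated mice, with adjusted p of 0.103 and 0.781 by limma.

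Of the 3 tested inward rectifiers, Kcnj4 and Kcnj11 fell. Kcnj4 is a strong inward rectifier of forebrain neurons. It had signals of 118, 80.9, 88.6 and 102 in untreated R6/2 mice, against 155, 176 and 150.5 in untreated wild type mice, and 105, 115 and 122 in treated R6/2 mice, against 129, 174 and 148 in treated wild type mice. Neither arm overlapped. The log2 change was -0.73 (SE 0.15) in untreated mice (limma adjusted p = 0.011), -0.39 (SE 0.16) in treated mice (adjusted p = 0.459) and -0.56 (SE 0.11) averaged (adjusted p = 0.00733). No channel gene had a smaller adjusted p in untreated mice. The call held in 12 of 13 fits without 1 array, the exception being untreated wild type array 2 (log2 change -0.66, limma adjusted p = 0.0604), and was lost without untreated R6/2 arrays 2 and 3 (-0.55, adjusted p = 0.0783).

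Kcnj11, the pore of the ATP-sensitive potassium channel, had 62, 47.3, 43.1 and 101 in untreated R6/2 mice, against 161, 168 and 102 in untreated wild type mice. The highest R6/2 value, that of array 4, was just below the lowest wild type value. Its log2 change of -1.23 (SE 0.28) was the lowest of all channel genes (limma adjusted p = 0.0166). In treated mice Kcnj11 had 64.5, 64 and 110.3 in R6/2 and 84.6, 104 and 83.8 in wild type, which overlapped. Kcnj9, a subunit of the G-protein-gated channels, ranged over 98.4 to 208 in untreated R6/2 and 157 to 238 in untreated wild type mice and was not called (adjusted p = 0.366 by limma). Its partners Kcnj3 and Kcnj6 were below the filter, with median signals over the arrays of 15.4 for Kcnj3 and 19.7 for the brighter probe set of Kcnj6.

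Tandem-pore channels carry background potassium current. Kcnk2, opened by stretch and fatty acids, had signals of 262, 311, 245 and 281 in untreated R6/2 mice, against 343, 380.3 and 321 in untreated wild type mice. In treated mice it had 267, 292 and 240.3 in R6/2 and 335, 314 and 346 in wild type. The change was of like size in both arms, -0.34 (SE 0.12) untreated and -0.32 (SE 0.13) treated on the log2 scale, and passed when averaged (-0.33 (SE 0.09), limma adjusted p = 0.0333). Kcnk4, a relative of Kcnk2, had 81.2, 76.1, 66.2 and 70.1 in untreated R6/2 mice, against 117, 127 and 98.2 in untreated wild type mice, a log2 change of -0.63 (SE 0.17) (limma adjusted p = 0.0316), and overlapped in treated mice (-0.17 (SE 0.18)). Kcnk1 was not called, with 241 to 520.1 in untreated R6/2 and 198 to 622 in untreated wild type mice. Kcnk7 had a log2 change of 0.24 in untreated mice and was not called (adjusted p = 0.353 by limma).

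Kcnn1, a small-conductance calcium-activated channel that shapes the afterhyperpolarization, stood out among the calcium-activated genes. It had signals of 45.7, 87.1, 40.5 and 38.1 in untreated R6/2 mice, against 91.3, 101 and 97.2 in untreated wild type mice. In treated mice it had 102, 96.8 and 83.4 in R6/2 and 89.9, 106 and 105 in wild type. Untreated R6/2 arrays 1, 3 and 4 were thus below every other array of the study. Array 2, at 87.1, was within the range of the treated R6/2 arrays but below every wild type array. The log2 change was -0.96 (SE 0.23) in untreated mice (limma adjusted p = 0.0197) and -1.21 without arrays 2 and 3 (adjusted p = 0.00189). In treated mice it was -0.09 (SE 0.24) (adjusted p = 0.978 by limma). Kcnma1, the large-conductance channel, had 366, 324 and 364 in treated R6/2 mice, against 484, 466 and 446 in treated wild type mice, which did not overlap (log2 change -0.41 (SE 0.13), limma adjusted p = 0.256). In untreated mice its change was 0.08 (SE 0.12). Kcnn4, known mainly from blood and immune cells, was dim and did not pass in untreated mice (0.62 (SE 0.25), adjusted p = 0.115 by limma).

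Hcn2 and Hcn3 carry the pacemaker current. The brighter probe set of Hcn2 had 649, 540, 380.4 and 759 in untreated R6/2 mice, against 773, 804 and 864 in untreated wild type mice, with all R6/2 values lower. Its other probe set also did not overlap, at 85.4 to 182 in untreated R6/2 and 189.7 to 194 in untreated wild type mice. The log2 changes, -0.53 (SE 0.19) and -0.61 (SE 0.19), missed the threshold, with limma adjusted p of 0.0852 and 0.0516. In treated mice they were 0.21 and -0.01. For the brighter probe set the lowest values were those of untreated R6/2 arrays 3 and 2. The median log2 change of the 2 Hcn genes in untreated mice was -0.24, and 0.05 without those arrays. Hcn3 had log2 changes of 0.06 (SE 0.16) in untreated mice and 0.29 (SE 0.18) in treated mice, where the R6/2 values of 178 to 227 lay above the wild type values of 145 to 176 (limma adjusted p = 0.72).

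Of the sodium channels, Scn8a serves nodes of Ranvier and the axon's initial segment, and Scn1a is best known from inhibitory interneurons. Scn8a had signals of 151, 210.5, 189.6 and 182 in untreated R6/2 mice, against 247, 298 and 333 in untreated wild type mice. It had 157, 175 and 127 in treated R6/2 mice and 179, 173 and 179 in treated wild type mice. As with Kcna2, the untreated wild type group lay above the other 3. The log2 change of Scn8a was -0.67 (SE 0.15) in untreated mice (limma adjusted p = 0.0147), -0.81 without untreated R6/2 arrays 2 and 3 (adjusted p = 0.0247) and -0.22 (SE 0.16) in treated mice (adjusted p = 0.791). A second Scn8a probe set lay below the filter. Scn1a had 484, 682, 704 and 429 in untreated R6/2 and 423, 499 and 453 in untreated wild type mice. Its higher values were those of untreated R6/2 arrays 2 and 3. Its log2 change of 0.30 (SE 0.18) was not called, its other probe set gave 0.09, and without those arrays it was -0.00408.

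Among calcium channel genes both alpha2delta subunits, which bring channels to the surface and to release sites, fell in untreated R6/2 mice, and only Cacna2d3 fell in treated mice. Cacna2d3 had signals of 147, 163, 132 and 201 in untreated R6/2 mice, against 216, 243 and 249.6 in untreated wild type mice. In treated mice it had 137, 131 and 156 in R6/2 and 237, 214 and 255 in wild type. All 7 R6/2 values were below all 6 wild type values. The log2 change was -0.57 (SE 0.14) in untreated mice (limma adjusted p = 0.024), -0.73 (SE 0.15) in treated mice (adjusted p = 0.0357) and -0.65 (SE 0.10) averaged (adjusted p = 0.00203), the smallest averaged adjusted p among the channels. The calls within single arms held less well. In treated mice 4 of 13 fits without 1 array kept the call. It was lost without any treated R6/2 array, any treated wild type array, untreated R6/2 array 2 or untreated wild type array 2 or 3, with log2 changes of -0.67 to -0.81 and limma adjusted p of 0.0554 to 0.161. In untreated mice 9 of 13 kept it, and it was lost without untreated R6/2 array 2 or 3 or untreated wild type array 2 or 3 (-0.48 to -0.58, limma adjusted p = 0.0501 to 0.0959). Without both untreated R6/2 arrays 2 and 3 it was -0.45 (limma adjusted p = 0.128).

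Cacna2d1, the target of gabapentin, had 79.8, 73.2, 56.1 and 101 in untreated R6/2 mice, against 111, 118 and 132 in untreated wild type mice, and 111, 105 and 89.5 in treated R6/2 mice, against 84.4, 115 and 77.2 in treated wild type mice. The untreated groups did not overlap and the treated groups did. Its log2 change was -0.66 (SE 0.19) in untreated mice (limma adjusted p = 0.0393) and 0.16 (SE 0.20) in treated mice (adjusted p = 0.936). The pore genes did not pass. Cacna1a, the P/Q-type pore of presynaptic terminals and Purkinje cells, had 72.7, 47.9, 31.4 and 59.3 in untreated R6/2 mice, against 89.7, 82.2 and 84.7 in untreated wild type mice, without overlap (log2 change -0.76 (SE 0.26), limma adjusted p = 0.0702), and -0.38 without arrays 2 and 3. Cacna1b (N-type), Cacna1g (T-type) and Cacna1c (L-type) had log2 changes of -0.39, -0.24 and 0.25 in untreated mice. The beta subunit Cacnb2 and Cacng2, which also carries AMPA receptors to synapses, had log2 changes of -0.42 (SE 0.15) and -0.46 (SE 0.22) without passing (adjusted p = 0.0836 and 0.167 by limma).

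**Figure D3:**
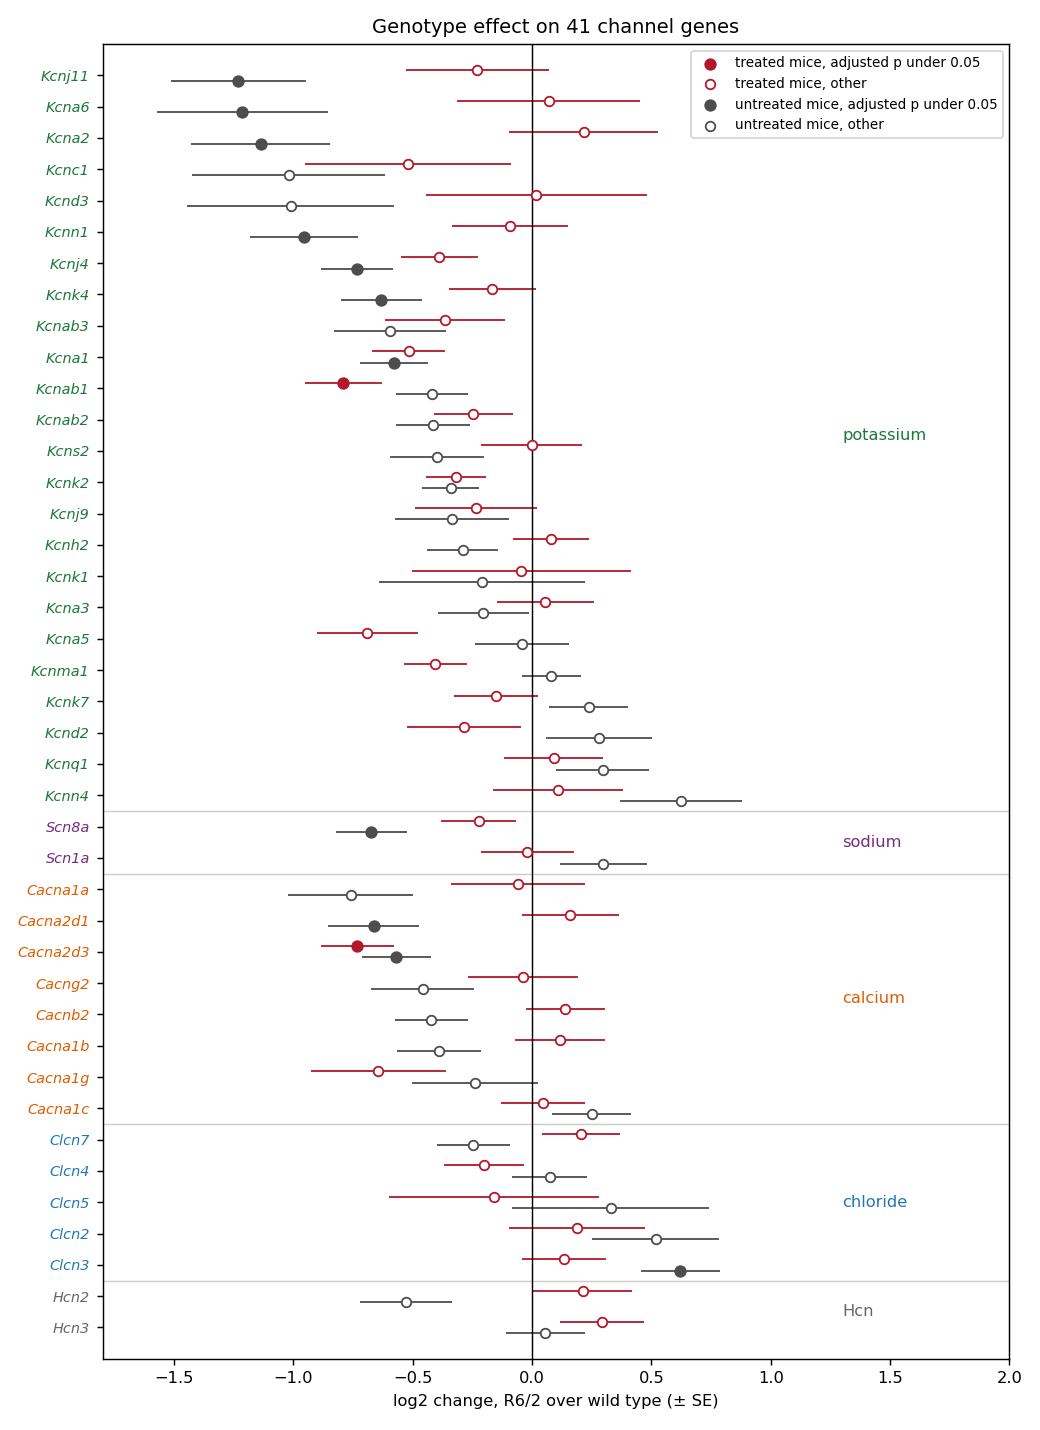
Log2 change in R6/2 over wild type mice with its SE (x axis) for each of the 41 tested channel genes (rows, grouped by class), in treated and in untreated mice, filled where the limma adjusted p was under 0.05. Filled points in both arms appear for Cacna2d3 alone, whose call was lost in 9 of 13 fits without 1 array in treated mice and in 4 of 13 in untreated mice.

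Among chloride channel genes, Clcn3, an exchanger of endosomes and synaptic vesicles, rose by its brightest probe set. It had signals of 1056, 1259.8, 1773 and 1072 in untreated R6/2 mice, against 696, 928 and 853 in untreated wild type mice. In treated mice it had 1016, 1089 and 963 in R6/2 and 1015, 836 and 949 in wild type, which overlapped. The highest values were those of untreated R6/2 arrays 3 and 2. The log2 change was 0.62 (SE 0.16) in untreated mice (limma adjusted p = 0.0286) and 0.38 without those arrays (adjusted p = 0.137). The other 3 Clcn3 probe sets gave -0.30, 0.42 and 0.40, so the probe sets of Clcn3 did not share a sign. Clcn2, at the cell surface, had a log2 change of 0.52 (SE 0.27), and the endosomal and lysosomal Clcn4, Clcn5 and Clcn7 had changes of 0.07, 0.33 and -0.25. The other tested probe sets of Clcn4 and Clcn7 gave -0.09 and -0.29. None of these passed.

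**Figure D4:**
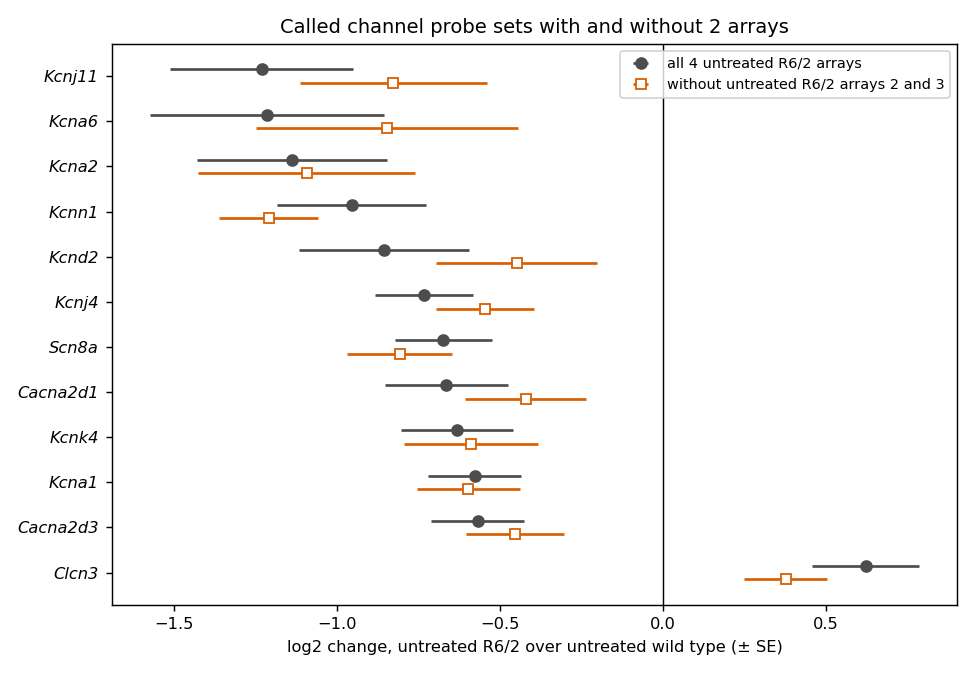
Log2 change in untreated R6/2 over untreated wild type mice with its SE (x axis) for the 12 channel probe sets that passed, with all 4 untreated R6/2 arrays (filled) and without arrays 2 and 3 (open). Every estimate kept its sign. Without the arrays that of Kcnn1 was -1.21 instead of -0.96 and that of Kcnd2, shown by its dimmer probe set, was -0.45 instead of -0.86.

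The 10 probe sets that lost their call without untreated R6/2 arrays 2 and 3 had adjusted p of 0.0714 to 0.35 by limma in that fit. Their log2 changes were -0.83 for Kcnj11, -0.85 for Kcna6, -1.09 for Kcna2, -0.59 for Kcnk4, -0.60 for Kcna1 and -0.42 for Cacna2d1, beside the values of Kcnj4, Cacna2d3, Kcnd2 and Clcn3 given above. Leaving out single arrays moved the count of untreated calls most on the wild type side. No channel probe set passed without untreated wild type array 2, 2 passed without array 3 (Kcnj11 and Kcnj4) and 4 without array 1 (Cacna2d3, Kcnj4, Kcnn1 and Scn8a). In the same order, 157, 220 and 392 of all 7453 tested probe sets passed, against 887 with all arrays. On the R6/2 side, 6 passed without array 3, 7 without array 2, 17 without array 1 and 16 without array 4. Beside them 491, 397, 1247 and 1308 of all tested probe sets passed. All 12 estimates kept their sign in these fits.

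The treatment comparisons gave no call. In R6/2 mice 0 of 50 channel probe sets passed with limma, as did 0% of all probe sets, and 10 had an unadjusted p under 0.05, beside 16.9% of all. In wild type mice 0 of 50 passed, again beside 0% of all, and 4 had an unadjusted p under 0.05, beside 10.3% of all. Treated R6/2 arrays lay below untreated R6/2 arrays for 1 of the 50 probe sets and above for 1, beside 5.65% and 4.94% of all. Treated wild type arrays lay below untreated wild type arrays for 5 and above for 3, beside 10.4% and 11.4% of all. The treatment comparisons share their arrays with the genotype comparisons, so a gene's values are given side by side and no relation between them was computed. In R6/2 mice the median change of the channel genes was 0.17 on the log2 scale, beside 0.02 over all tested probe sets. Without untreated R6/2 arrays 2 and 3 these medians were 0.01 and -0.01. In wild type mice the channel median was -0.01, beside 0.01 over all.

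Kcnn1 had the smallest adjusted p of a channel in treated against untreated R6/2 mice, with signals of 102, 96.8 and 83.4 in treated R6/2 mice, against 45.7, 87.1, 40.5 and 38.1 in untreated R6/2 mice. Its log2 change was 0.91 (SE 0.23), with a limma adjusted p of 0.246. Without untreated R6/2 arrays 2 and 3 it was 1.17 (limma adjusted p = 0.036), the 1 probe set of 7453 (0.0134%) that passed in that fit. Without array 2 alone it was 1.18 (limma adjusted p = 0.0106), again the 1 probe set that passed. When untreated R6/2 array 1 was left out, 116 of all tested probe sets passed, among them the dimmer Hcn2 probe set, at 0.82, and 1 of the 4 Clcn3 probe sets, at -0.91 (limma adjusted p = 0.0296 for both), and Kcnn1 was not among them. In wild type mice the Kcnn1 change with treatment was 0.05 (SE 0.24), and the difference between the genotypes in the treatment effect was 0.86 (SE 0.33), with an adjusted p of 0.318 by limma.

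The other channel genes had estimates closer to 0 than Kcnn1 with treatment in R6/2 mice. The Hcn2 probe sets had log2 changes of 0.57 (SE 0.19) and 0.64 (SE 0.19), with limma adjusted p of 0.247 for both. For the brighter, the treated R6/2 values of 816 to 879 were above the untreated R6/2 values of 380.4 to 759. Without untreated R6/2 arrays 2 and 3 the changes were 0.26 and 0.37. Kcnab1 was lower in treated than in untreated R6/2 mice in every array (-0.29 (SE 0.15), limma adjusted p = 0.329). Kcnab3, Kcnh2 and Cacng2 had log2 changes of 0.61, 0.41 and 0.53, and Cacna1g and Scn1a of -0.45 and -0.29, none past the threshold.

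In wild type mice Scn8a and Kcna2 had the smallest p. Treated wild type values of Scn8a, 173 to 179, lay below the untreated wild type values of 247 to 333, a log2 change of -0.71 (SE 0.16) (limma adjusted p = 0.254, and 0.0241 with array weights). The fit with array weights called 120 of all 7453 tested probe sets. Treated wild type values of Kcna2, 30.3 to 72.8, lay below the untreated wild type values of 96.8 to 107 (-1.05 (SE 0.31), adjusted p = 0.318 by limma). In R6/2 mice the changes with treatment were -0.26 (SE 0.15) for Scn8a and 0.30 (SE 0.29) for Kcna2. Kcnma1 was higher in all treated than in all untreated wild type arrays, with a log2 change of 0.28 (SE 0.13) (limma adjusted p = 0.485). Its lowest treated wild type value, 445.9, was just above its highest untreated wild type value, 445.7.

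**Figure D5:**
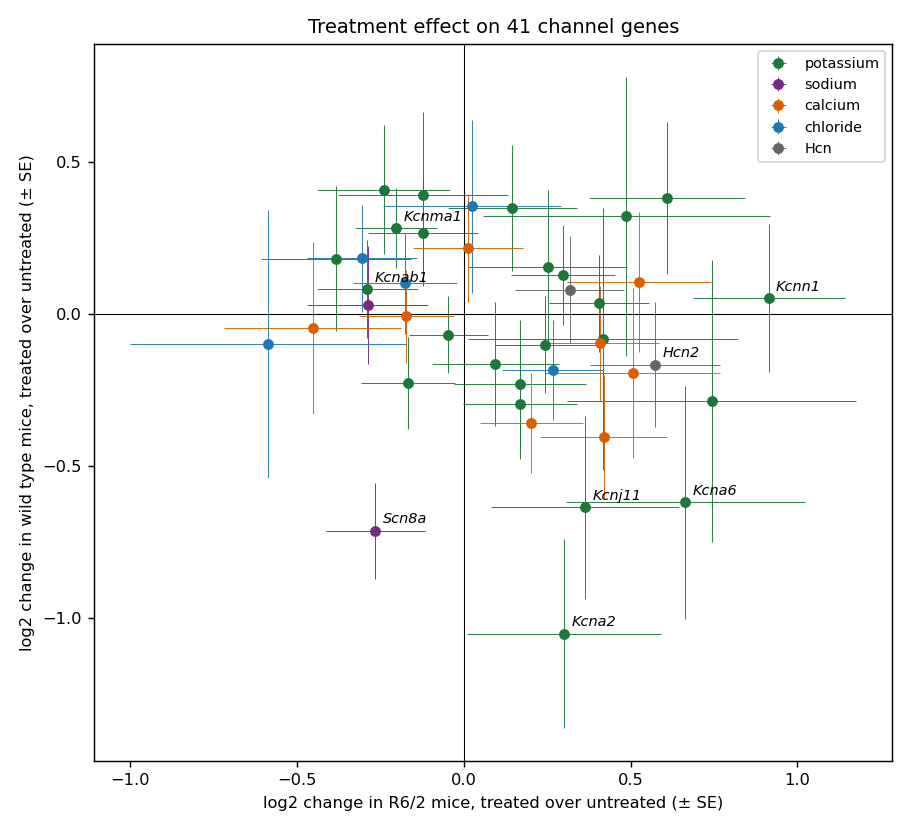
Log2 change with treatment in R6/2 mice (x axis) and in wild type mice (y axis) of the 41 tested channel genes, with SE bars and colours by class. Kcnn1 lies farthest right at 0.91 with a wild type change near 0, and Kcna2 lowest at -1.05, with no gene past the threshold on either axis.

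No channel passed in the interaction of genotype and treatment: 0 of 50 did by limma (0% of all), and 11 had an unadjusted p under 0.05, beside 13.5% of all. The smallest adjusted p was 0.305, for Kcna2, with 1.35 (SE 0.43) on the log2 scale. Cacna2d1 followed with 0.82 (SE 0.28) (adjusted p = 0.315 by limma). A p above the threshold does not show that treatment acted alike in both genotypes. Of the 10 channel genes that fell in untreated R6/2 mice, 7 (70%) had an estimate below 0 in treated mice too, as did 80.2% of the 359 genes on the array that fell.

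The 38 probe sets below the filter had median signals of 0.9 to 32.7 over the arrays. They included every probe set of 27 genes, among them 8 of 11 inward rectifiers, 4 of 6 sodium channels and 3 of 7 calcium pores. The rest were further probe sets of tested genes. Kcnj2 and Kcnj12, strong inward rectifiers related to Kcnj4, had medians of 5.2 and 15.6. Scn3a, a sodium channel of the developing brain, had a median of 1.2, and the A-type pore gene Kcna4 one of 20.9. Without the filter none of the 38 passed in any of the 6 comparisons, with a smallest adjusted p of 0.0748.

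Genes that anchor, modify or feed these channels were taken as lists for context. Of 19 tested channel partners and anchors, 6 fell and 1 rose in untreated R6/2 mice, where 6.41% of all tested probe sets fell and 5.49% rose. Stx1a, a release protein that binds calcium channels, had 344, 254, 164 and 325 in untreated R6/2 mice, against 616, 578 and 565 in untreated wild type mice (log2 change -1.17, limma adjusted p = 0.00428). Dlg4, a scaffold of shaker-type channels, changed by -0.85, Cntnap1 of the paranode by -0.85, Fgf13, which binds sodium channels, by -0.88, Dpp6, a partner of A-type channels, by -0.69, and Hpcal1 by -0.38, while Calm2, a calmodulin gene, rose by 0.75. Of 11 pumps and cotransporters that keep the ion gradients, Atp2b2 (-1.65), Atp1b2 (-1.25) and Fxyd7 (-1.19) fell and Slc12a2 (0.60) rose. Among 11 other cation channels Asic2 (-0.57) fell and Vdac2 (0.49) rose, and none of 4 other chloride channels passed. Without untreated R6/2 arrays 2 and 3, 2 of the 19, 1 of the 11 pumps and none of the 11 cation channels passed, Stx1a (-0.81) and Atp2b2 (-1.25) among them, beside 2.19% of all probe sets. In treated mice no gene of these 4 lists passed, beside 0.792% of all probe sets.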

How the data were processed

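RNA of whole brain hemispheres from 13 samples in 4 groups was read on Affymetrix MG-U74Av2 arrays. The values are intensities on a linear scale, as deposited by the authors, with 1 value per probe set. Trimmed means (2% at each end) of 100.047 to 100.128 show that the authors scaled the arrays. The software that made them is not given in the sources used here. Arrays give no read depth, and their number limits the precision.

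Of 12488 probe sets, 66 controls were left out. Signals were raised to a floor of 3.1 (10th percentile) and turned to log2, and probe sets under the 40th percentile of the mean were dropped, which left 7453. The array annotation gave 1 gene to 10833 probe sets, several to 396 and none to 1193. Each gene was counted by its brightest tested probe set. Differences were fitted with limma 3.58.1 (R 4.3.3; lmFit, eBayes with an intensity trend, 1 mean per group over all 13 arrays), and p-values of each of the 6 comparisons were adjusted by Benjamini-Hochberg over all 7453, with a threshold of 0.05. The fit was tested on simulated data. Alternatives changed the floor, scaling, filter, weights, trend and arrays used.

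Named are all members past the threshold, up to 5 per direction by smallest p where fewer passed, the 3 brightest of each class, those with several tested probe sets or a low interaction p, and channels listed by role. Clcn5, Kcna3, Kcna4, Kcnd3, Kcns2, Kcnj2, Kcnj12 and Scn3a were named after their values were seen. The members and lists were chosen with earlier results of these data known. Promoter sequences are from RefSeq (GRCm38.p6).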

Additional observations from a re-analysis of the deposited data

Results flagged for a closer look

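Within the untreated R6/2 group, the only group of 4 arrays, 46 channel probe sets were examined for a single array far from the other 3, and 2 had one. Kcnab1 was at 163.9 in untreated R6/2 array 2, against 118, 121.1 and 115.9 in arrays 1, 3 and 4, a gap of 0.873 of the group's range. The Kcnab2 probe set that is not its brightest was at 160.9 in untreated R6/2 array 3, against 131.3, 132.5 and 130.3 in arrays 1, 2 and 4, a gap of 0.921 of the range. Both gaps exceed the critical value of Dixon's test for 4 arrays, which chance exceeds in about 1 of 20 groups.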

How the results depend on the processing

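With the settings of the report, 12, 2 and 7 of 50 channel probe sets passed for genotype in untreated, treated and averaged mice, and 0 passed for treatment in R6/2 mice, treatment in wild type mice and the interaction. Of all 7453 tested probe sets, 887, 59 and 493 passed in the genotype comparisons and 0 in the others. A floor at the 20th percentile, log2 of the value plus 16, quantile normalization, equal array medians and a filter at the 60th percentile left the genotype counts at 10 to 13, 2, and 7 to 8. The counts over all probe sets in these fits were 763 to 945, 60 to 70 and 436 to 522. In untreated mice 4 passed without a filter, 2 with only the arrays compared, 2 without untreated R6/2 arrays 2 and 3, and 0 to 17 when 1 array was left out. Over all probe sets these counts were 512, 243, 163 and 157 to 1308, the first out of 12422 tested without the filter. In treated mice 0 passed without a filter, 1 without an intensity trend, and 0 to 2 with 1 array left out, beside 70, 58 and 20 to 95 of all. Averaged, 11 passed with array weights and 4 to 10 with 1 array left out, beside 932 and 263 to 704 of all. For treatment in R6/2 mice 1 passed without those 2 arrays (Kcnn1) and 0 to 2 with 1 array left out, and for treatment in wild type mice 1 passed with array weights (Scn8a). Of all probe sets, 1, 0 to 116 and 120 passed in these fits. The cause was not tested. Over all 50 probe sets and 6 comparisons, 34 of 300 estimates changed sign without arrays 2 and 3, none of which had passed: 8 for genotype in untreated mice, 6 averaged, 11 for treatment in R6/2 mice and 9 in the interaction. Among the estimates of probe sets that passed or had the smallest p in a comparison, 1415 alternatives kept direction and side of the threshold, 125 lost the call, 8 gained it and 2 changed sign, both in untreated mice without arrays 2 and 3: Kcnd2, by its brighter probe set, at -0.0546, and Scn1a, at -0.00408. Only the estimates that had passed, 12, 2 and 7 in the genotype comparisons, could lose a call. The 1415 include estimates that had not passed and stayed so.

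No paired analysis was possible because the numbers in the sample titles all differ and the replicate numbers used here only name arrays. The description of treated R6/2 array 1 repeats the lot number of untreated R6/2 array 4, and the median channel gene differed by -0.06 on the log2 scale between these arrays, with 16 of 41 above 0. Groups of 3 and 4 arrays limit the precision, dim channels could not be tested, and the groups' values rest on whole hemispheres, so changes of opposite sign in different regions cannot be seen.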
